A study of Homo sapiens with 8 samples.

Results

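The genes described here are 42 genes of protein folding and its stress responses, measured by RNA sequencing in SCC25 cells with and without the transcription factor ETS1. They were taken by symbol from a fixed list, which was chosen with earlier results of these data known. All 42 were among the 56638 gene symbols of both count tables. The list has an endoplasmic reticulum (ER) arm of 26 genes, made of 16 chaperones and folding enzymes, 4 genes of ER-associated degradation and 6 sensors and factors of the unfolded protein response (UPR). The cytosolic arm has 16 genes of the heat shock system, including the chaperonin pair HSPD1 and HSPE1, which works in mitochondria. SCC25 is an established human cell line from a squamous carcinoma of the tongue. The siRNA control cells were transfected with non-targeting siRNA and the ETS1 siRNA cells with a pool of siRNAs against ETS1. The shCON cells stably carried a non-targeting hairpin and the shETS1 cells a hairpin against ETS1 (shETS1-3), both introduced with lentivirus. There were 2 libraries in each of the 4 groups, and both knockdowns were set against their own controls. All cells grew in medium with serum and 400 ng/ml hydrocortisone, and the shRNA cells had also been selected with puromycin at 2 µg/ml. The stable knockdown is a single hairpin, so that effects of ETS1 loss and of that hairpin or its selection cannot be told apart. The siRNA libraries are described as biological replicates, whereas it is not given whether the shRNA libraries came from separate transductions. The p-values therefore measure the spread between these libraries.

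Proteins that enter the secretory pathway fold in the ER with the help of lumenal chaperones, of which HSPA5 (BiP) is the central one, and of disulfide isomerases. When unfolded proteins accumulate, the membrane sensors IRE1 (gene ERN1), PERK (EIF2AK3) and ATF6 become active. IRE1 splices the XBP1 mRNA, PERK phosphorylates the initiation factor eIF2 and so favours translation of ATF4, and ATF6 is cut to release a transcription factor. Their outputs raise ER chaperones and the ER-associated degradation machinery and, through ATF4, DDIT3 (CHOP) and PPP1R15A. In the cytosol HSF1 plays the corresponding role and drives genes of the HSP70, HSP90 and small heat shock protein families. Read counts per gene show mRNA levels and carry no information on XBP1 splicing, ATF6 cleavage or PERK phosphorylation.

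Depth ran from 15954616 to 25953213 counts per library. Levels are given as CPM, the counts relative to the depth of the library, after TMM scaling within each table. They cannot be compared directly between the table of the siRNA libraries and that of the shRNA libraries. The target ETS1 had 288 and 248 CPM in siRNA control and 17.4 and 13.2 CPM in ETS1 siRNA (log2 change -4.13 ± 0.19 (SE), adjusted p = 1.73e-04). It had 82.3 and 72.1 CPM in shCON and 9.76 and 11.1 CPM in shETS1 (log2 change -2.89 ± 0.10 (SE), adjusted p = 3.82e-13). All 7 squamous markers checked had counts in every library, with a summed level of 14496 to 19118 CPM in siRNA control, 21845 to 25830 CPM in ETS1 siRNA, 15150 to 15294 CPM in shCON and 25543 to 25947 CPM in shETS1. The 9 markers of leukocytes, endothelium and fibroblasts summed to 23.01 to 23.48 CPM, 28.05 to 31.72 CPM, 226 to 257 CPM and 1938 to 2038 CPM in the same order of groups. In the shRNA libraries that sum was almost wholly the fibroblast genes DCN (63.9 and 71.7 CPM in shCON and 678 and 645 CPM in shETS1) and LUM (159.9 and 183 CPM in shCON and 1357 and 1289 CPM in shETS1). The other 7 had at most 3.25 CPM in any shRNA library, and PECAM1 had no count in any of the 8 libraries, which allows up to 0.116 to 0.188 CPM (3 counts per library before TMM scaling, counting error only). The non-polyadenylated structural RNAs RN7SK, RN7SL1, RN7SL2, RPPH1 and RMRP made up 5.61% to 6.63% of counts in shCON and 9.64% to 12.3% in shETS1. Their share in siRNA libraries was at most 0.00339%. The fibroblast genes and the structural RNAs thus moved with the shRNA groups. With these 5 RNAs left out of the counts, an alternative chosen after seeing the data, 8 genes of the list were higher and 22 lower after shRNA, against 8 and 21 with them, and the ER median was -0.22 against -0.21 on the log2 scale. The part of the fibroblast genes in the results was not tested. In bulk RNA, fewer cells of a type and less RNA per cell cannot be told apart.

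Across the list, ETS1 siRNA left nearly all genes uncalled, as it did among all genes tested. With the stable hairpin 12 of the 26 ER genes and 9 of the 16 cytosolic genes had lower mRNA, beside 30.9% of all genes tested. The standard error was larger after siRNA than after shRNA for every gene of the list, so that the counts of calls are not directly comparable. A gene was called when the edgeR quasi-likelihood F-test gave an adjusted p under 0.1 (Benjamini-Hochberg over all genes tested). All 42 genes passed the filter on low counts in every comparison. After siRNA, 1 of the 42 was called, HSPB1, which was higher, while 3.41% of all 14742 genes tested were called, 1.13% higher and 2.27% lower. At an unadjusted p under 0.05 there were 10 of 42, beside 18.5% of all genes tested. DESeq2 called 2 higher and 2 lower, beside 2.1% and 3.31% of all genes. After shRNA, 29 of the 42 were called, 8 higher and 21 lower. This count has to be read against a background in which 60.6% of all 16481 genes tested were called, 29.7% higher and 30.9% lower. The share of the list that was called (69.0%) was thus near the background, while its calls split 8 to 21 and those of all genes nearly evenly. With scaling by library size alone, which moved the median of all genes by -0.12 on the log2 scale, the split was 5 higher and 29 lower, beside 22% and 38% of all genes. Of the 29 calls after shRNA, 24 held when each of the 4 libraries was left out in turn. The remaining 5 were ERN1, HSPA1B, HSPA4, PDIA6 and SDF2L1.

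**Figure D1:**
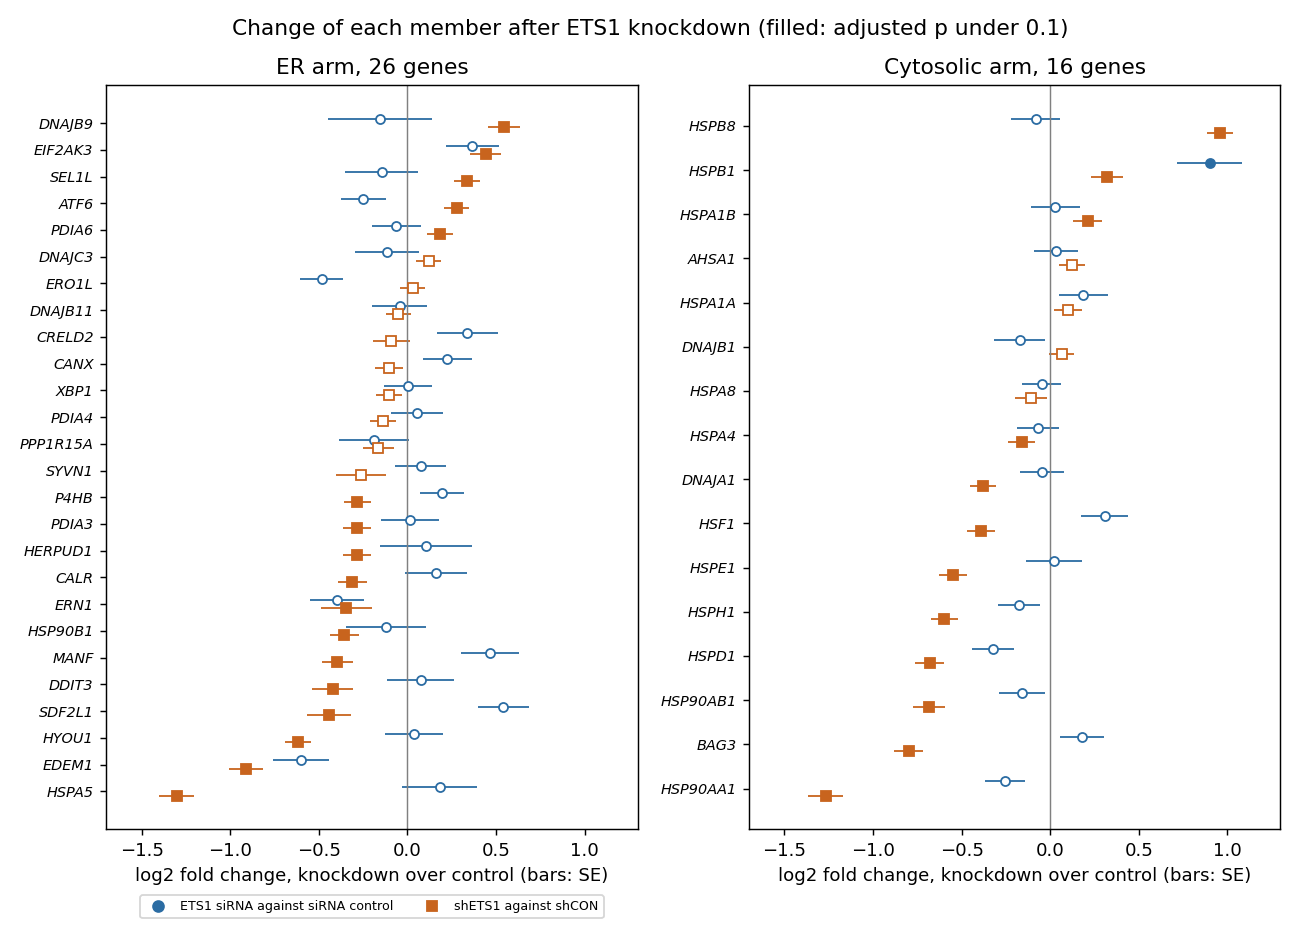
Log2 fold change of each gene (horizontal axis, bars show the standard error) after ETS1 siRNA (blue circles) and in shETS1 cells (orange squares), each against its own control with 2 libraries per group. Filled symbols passed the test, and the orange symbols reach -1.30 for HSPA5 and 0.96 for HSPB8 while 1 blue symbol, HSPB1, is filled.

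Among the ER chaperones and folding enzymes, the stable knockdown was followed by a fall of 8 of 16 genes and a rise of 2. The largest fall was in HSPA5, the HSP70 of the ER lumen and regulator of the UPR sensors. HSPA5 had 269 and 231 CPM in shCON and 89.97 and 113 CPM in shETS1, a 2.47-fold fall (log2 change -1.30 ± 0.098 (SE), adjusted p = 6.77e-09). Every shETS1 library was below every shCON library by more than the spread within either group. In the siRNA table HSPA5 had 2530.4 and 1695 CPM in siRNA control and 2015 and 2782 CPM in ETS1 siRNA, and the groups overlapped (log2 change 0.18 ± 0.21 (SE), adjusted p = 0.691). HSP90B1 (GRP94), the HSP90 of the ER, had 832 and 855 CPM in shCON and 639 and 679.9 CPM in shETS1 (log2 change -0.36 ± 0.080 (SE), adjusted p = 0.00111). That call was lost when all 8 libraries were fitted together (log2 change -0.37, adjusted p = 0.155). After siRNA HSP90B1 had 2195 and 1445 CPM in siRNA control and 1370.0 and 1980.1 CPM in ETS1 siRNA, with a spread between replicates wider than the difference between groups (log2 change -0.12 ± 0.23 (SE), adjusted p = 0.818). HYOU1, a large HSP70-like chaperone that exchanges nucleotide on HSPA5, had 215 and 201 CPM in shCON and 139.9 and 131 CPM in shETS1 (log2 change -0.62 ± 0.074 (SE), adjusted p = 1.83e-06). After siRNA its level was 605 and 442 CPM in siRNA control and 508 and 566 CPM in ETS1 siRNA, again overlapping (log2 change 0.04 ± 0.16 (SE), adjusted p = 0.930). SDF2L1, which works with the ER DNAJ proteins, fell from 16.4 and 19.97 CPM in shCON to 14.5 and 12.3 CPM in shETS1 (log2 change -0.44 ± 0.12 (SE), adjusted p = 0.00550). That call was lost without shCON replicate 2 (log2 change -0.29, adjusted p = 0.118). In the siRNA table SDF2L1 had 35.7 and 30.1 CPM in siRNA control and 43.9 and 51.9 CPM in ETS1 siRNA, with no overlap but short of the threshold (log2 change 0.54 ± 0.14 (SE), adjusted p = 0.119).

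The other falls in this group lay between -0.28 and -0.40 on the log2 scale. They were in MANF, a secreted ER stress factor (-0.40), the calcium-binding lectin chaperone CALR (-0.31), and the disulfide isomerases PDIA3 (-0.29) and P4HB (-0.28). The rises were in DNAJB9 and PDIA6. DNAJB9, an HSPA5 co-chaperone of the DNAJ family, had 21.5 and 22.5 CPM in shCON and 31.3 and 32.9 CPM in shETS1 (log2 change 0.55 ± 0.091 (SE), adjusted p = 6.81e-05). In the joint fit of all 8 libraries DNAJB9 was not called (log2 change 0.53, adjusted p = 0.126). In the siRNA table it had 51.4 and 27.8 CPM in siRNA control and 27.6 and 43.7 CPM in ETS1 siRNA, where the replicates of each group differed by more than the groups did (log2 change -0.15 ± 0.29 (SE), adjusted p = 0.822). PDIA6, another disulfide isomerase, had 265 and 279 CPM in shCON and 309 and 310.4 CPM in shETS1 (log2 change 0.18 ± 0.073 (SE), adjusted p = 0.0416). Without shCON replicate 1 the PDIA6 change was 0.14 and not called (adjusted p = 0.314), with library size alone it was 0.059, and in the joint fit it was 0.17 (adjusted p = 0.245). Its siRNA levels were 405 and 358 CPM in siRNA control and 333 and 398 CPM in ETS1 siRNA (log2 change -0.06 ± 0.14 (SE), adjusted p = 0.851). ERO1L, the oxidase that recharges disulfide isomerases, did not pass in either comparison. It had 409 and 380.0 CPM in siRNA control and 277 and 287 CPM in ETS1 siRNA (log2 change -0.48 ± 0.12 (SE), adjusted p = 0.103), and 272 and 277 CPM in shCON and 277 and 283 CPM in shETS1 (log2 change 0.03 ± 0.072 (SE), adjusted p = 0.755). CANX, PDIA4, DNAJB11, DNAJC3 and CRELD2 were also not called after shRNA, with log2 changes from -0.14 to 0.12.

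**Figure D2:**
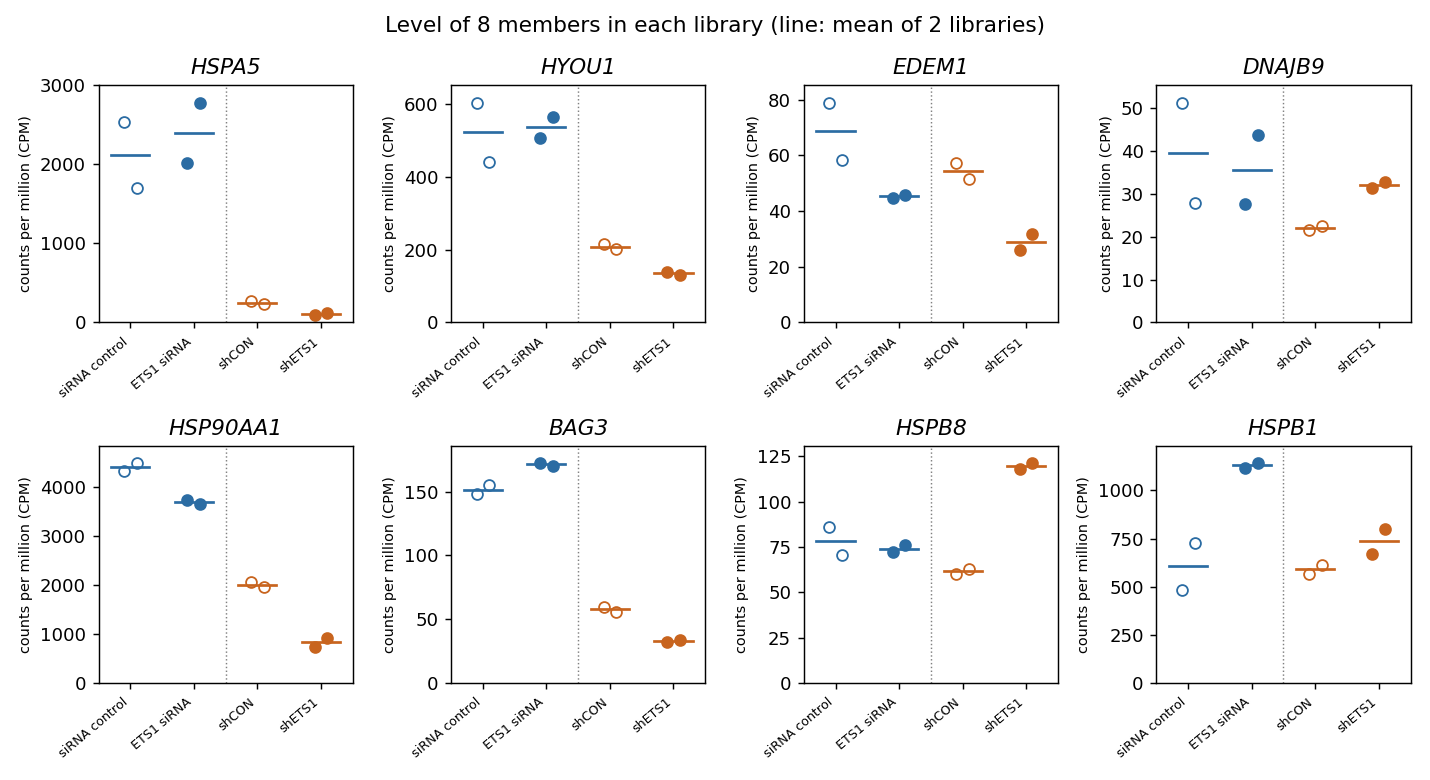
Level in CPM (vertical axis, from 0) of 8 genes in each of the 8 libraries, with points for libraries and lines for group means. The dotted line separates the 2 tables, which were scaled separately, and HSPA5 runs from 89.97 to 113 CPM in shETS1 against 231 to 269 CPM in shCON.

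The promoters of these genes are known for ER stress response elements, through which ATF6 and XBP1 act with the CCAAT-binding factor NF-Y. RefSeq promoter windows (250 bases before to 50 bases after the start) were found for 30 of the 42 genes, 20 of the ER arm and 10 of the cytosolic arm, of which 29 were placed in GRCh37 by exact match and are used for sequences. The 5 patterns were searched on both strands as exact letters. ERSE was CCAAT and CCACG separated by 9 bases, ERSE-II was ATTGG and CCACG separated by 1 base, UPRE was TGACGTGG, the heat shock element was 3 alternating units of GAA and TTC set 2 bases apart, and the ETS site was CCGGAAGT. In the sites printed here ERSE-II and UPRE overlap in HYOU1. ERSE was in 4 of the 20 ER windows, none of the 10 cytosolic windows and 0.0769% of all 35116 windows. ERSE-II was in 3, none and 0.0541%. UPRE was in 1, none and 0.729%. The windows around ERSE and ERSE-II are shown because HSPA5, HYOU1 and SDF2L1 are among their genes, with 5 flanking bases in lower case and the matched letters in capitals, read 5′ to 3′ along the gene in GRCh37.
HSPA5, chr9:128003670-128003688, minus strand: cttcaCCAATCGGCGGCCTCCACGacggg
HSP90B1, upstream site, chr12:104323994-104324012, plus strand: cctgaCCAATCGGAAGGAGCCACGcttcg
HSP90B1, downstream site, chr12:104324099-104324117, plus strand: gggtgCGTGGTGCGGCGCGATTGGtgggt
CALR, chr19:13049198-13049216, plus strand: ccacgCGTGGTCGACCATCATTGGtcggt
CRELD2, chr22:50312202-50312220, plus strand: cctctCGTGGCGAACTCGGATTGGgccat
HYOU1, upstream site, chr11:118928091-118928101, minus strand: cgtgaCGTGGTCCAATcccag
HYOU1, downstream site, chr11:118927985-118927995, minus strand: tgggaCGTGGTCCAATgagta
SDF2L1, chr22:21996403-21996413, plus strand: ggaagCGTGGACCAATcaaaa
HERPUD1, chr16:56965937-56965947, plus strand: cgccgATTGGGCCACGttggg

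Sites written CGTGG first lie on the opposite strand. The site of HSPA5 began 66 bases before the RefSeq start, in the following stretch of its promoter (chr9:128003663-128003872, minus strand), which ends upstream of the annotated gene and is shown because HSPA5 fell furthest.
HSPA5 promoter: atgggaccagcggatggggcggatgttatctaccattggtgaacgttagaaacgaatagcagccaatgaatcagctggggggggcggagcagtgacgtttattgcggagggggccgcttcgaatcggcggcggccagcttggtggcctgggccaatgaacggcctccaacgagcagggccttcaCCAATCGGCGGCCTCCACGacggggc

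Of the 7 ER genes with an ERSE or ERSE-II, 6 were lower after shRNA and CRELD2 was not called, with a median log2 change of -0.36. Of the other 12 ER genes with a placed window, 4 were higher, 3 lower and 5 not called, with a median of -0.011. Of all genes tested after shRNA, 29.7% were higher and 30.9% lower. After siRNA none of either set was called, beside 3.41% of all genes tested, and the medians were 0.16 and -0.15. These are descriptions of few genes, and a window without a match says only that the exact letters are absent from it. The ETS site was in the windows of DNAJB9, SYVN1 and DNAJA1, 3 of the 30, and in 4.14% of all windows. Of these 3 genes, DNAJB9 rose, DNAJA1 fell and SYVN1 was not called after shRNA.

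The 4 genes of ER-associated degradation, which returns misfolded proteins to the cytosol, moved in both directions. EDEM1, a lectin that hands misfolded glycoproteins to degradation, had 57.2 and 51.7 CPM in shCON and 26.1 and 31.7 CPM in shETS1 (log2 change -0.91 ± 0.097 (SE), adjusted p = 4.43e-07). It was also lower in both ETS1 siRNA libraries, with 79.04 and 58.4 CPM in siRNA control and 44.8 and 45.9 CPM in ETS1 siRNA, but did not pass the test there (log2 change -0.60 ± 0.16 (SE), adjusted p = 0.114). SEL1L, the adaptor of the ubiquitin ligase SYVN1 (HRD1), had 189 and 184 CPM in shCON and 230.3 and 240.3 CPM in shETS1 (log2 change 0.34 ± 0.072 (SE), adjusted p = 7.11e-04), and was not called in the joint fit (log2 change 0.32, adjusted p = 0.157). Its siRNA levels were 268 and 168 CPM in siRNA control and 193 and 202 CPM in ETS1 siRNA, with siRNA control replicate 1 above the 3 other libraries (log2 change -0.15 ± 0.20 (SE), adjusted p = 0.751). HERPUD1, a membrane component of the same complex, fell by a log2 change of -0.29 ± 0.080 (SE, adjusted p = 0.00605). SYVN1 itself was low in the shRNA table, at 11.3 and 8.83 CPM in shCON and 8.28 and 8.48 CPM in shETS1, and was not called (log2 change -0.26 ± 0.14, SE).

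Of the 6 sensors and factors of the UPR, 2 rose after shRNA and 2 fell. The rises were in the sensor genes EIF2AK3 and ATF6. EIF2AK3 had 29.04 and 28.2 CPM in shCON and 37.8 and 39.8 CPM in shETS1 (log2 change 0.44 ± 0.086 (SE), adjusted p = 3.01e-04). In the siRNA table EIF2AK3 had 14.9 and 13.3 CPM in siRNA control and 18.5 and 17.98 CPM in ETS1 siRNA, a difference of like size that did not pass (log2 change 0.37 ± 0.15 (SE), adjusted p = 0.246). ATF6 had 158 and 157 CPM in shCON and 191 and 189.7 CPM in shETS1 (log2 change 0.28 ± 0.070 (SE), adjusted p = 0.00277). After siRNA it had 129 and 129.7 CPM in siRNA control and 112 and 106 CPM in ETS1 siRNA, the lower pair being the knockdown (log2 change -0.25 ± 0.13 (SE), adjusted p = 0.336). The third sensor gene, ERN1, was among the lowest genes of the list and had 10.8 and 8.79 CPM in shCON and 8.37 and 7.06 CPM in shETS1 (log2 change -0.35 ± 0.14 (SE), adjusted p = 0.0507). That call was lost without shCON replicate 1 (log2 change -0.20, adjusted p = 0.404) and without shETS1 replicate 2 (-0.23, adjusted p = 0.226), and DESeq2 did not make it (-0.34, adjusted p = 0.183). ERN1 had 16.9 and 16.8 CPM in siRNA control and 13.5 and 12.1 CPM in ETS1 siRNA in the siRNA table (log2 change -0.40 ± 0.15 (SE), adjusted p = 0.222). DDIT3, the stress-induced transcription factor CHOP, had 14.8 and 14.2 CPM in shCON and 10.7 and 10.9 CPM in shETS1 (log2 change -0.42 ± 0.11 (SE), adjusted p = 0.00440). After siRNA DDIT3 had 29.1 and 21.1 CPM in siRNA control and 23.6 and 29.4 CPM in ETS1 siRNA, with overlapping groups (log2 change 0.08 ± 0.19 (SE), adjusted p = 0.865). Neither XBP1, the splicing target of IRE1, nor PPP1R15A, the phosphatase subunit that ends the PERK signal, was called. XBP1 had 292 and 299 CPM in shCON and 280.3 and 269 CPM in shETS1 (log2 change -0.11 ± 0.073 (SE), adjusted p = 0.234), and 155 and 141 CPM in siRNA control and 140.2 and 157 CPM in ETS1 siRNA (log2 change 0.00 ± 0.13 (SE), adjusted p = 0.994). PPP1R15A had 35.3 and 35.9 CPM in shCON and 33.5 and 30.05 CPM in shETS1 (log2 change -0.16 ± 0.088 (SE), adjusted p = 0.128), and 108 and 80.2 CPM in siRNA control and 69.8 and 95.5 CPM in ETS1 siRNA (log2 change -0.19 ± 0.20 (SE), adjusted p = 0.654). With library size alone, XBP1 and PPP1R15A were called lower after shRNA (adjusted p = 0.0113 and 0.0135), and without shETS1 replicate 1 PPP1R15A was called as well (log2 change -0.25, adjusted p = 0.0369).

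In the cytosolic arm, 9 of 16 genes fell after shRNA, 3 rose and 4 were not called. HSF1, the transcription factor of the heat shock response, had 49.998 and 51.4 CPM in shCON and 39.1 and 38.3 CPM in shETS1 (log2 change -0.39 ± 0.079 (SE), adjusted p = 4.56e-04). In the siRNA table HSF1 had 103 and 117 CPM in siRNA control and 134 and 137 CPM in ETS1 siRNA, where the knockdown pair was the higher one (log2 change 0.31 ± 0.13 (SE), adjusted p = 0.271). The cytosolic HSP90 genes fell together. HSP90AA1, the stress-inducible HSP90, had 2056 and 1953 CPM in shCON and 744 and 921 CPM in shETS1, a 2.41-fold fall (log2 change -1.27 ± 0.10 (SE), adjusted p = 1.21e-08). After siRNA HSP90AA1 had 4323 and 4487 CPM in siRNA control and 3729.5 and 3653 CPM in ETS1 siRNA, without overlap but short of the threshold (log2 change -0.26 ± 0.11 (SE), adjusted p = 0.268). HSP90AB1, the constitutive form, had 1601 and 1583 CPM in shCON and 913 and 1065 CPM in shETS1 (log2 change -0.69 ± 0.091 (SE), adjusted p = 5.70e-06). Its siRNA levels were 3136 and 2757 CPM in siRNA control and 2461 and 2815 CPM in ETS1 siRNA (log2 change -0.16 ± 0.13 (SE), adjusted p = 0.541).

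The HSP70 family did not move as a block. HSPA8, the constitutive cytosolic HSP70, had 3178 and 3244 CPM in shCON and 3114 and 2843 CPM in shETS1 (log2 change -0.11 ± 0.092 (SE), adjusted p = 0.340), and 3507 and 3532 CPM in siRNA control and 3345 and 3461 CPM in ETS1 siRNA (log2 change -0.05 ± 0.11 (SE), adjusted p = 0.851). With library size alone HSPA8 was called lower after shRNA (log2 change -0.24, adjusted p = 0.0235). The inducible HSP70 genes HSPA1A and HSPA1B are nearly identical, so that short reads cannot always be assigned between them. HSPA1A had 70.5 and 66.5 CPM in shCON and 76.4 and 70.6 CPM in shETS1 (log2 change 0.10 ± 0.077 (SE), adjusted p = 0.289), and 86.7 and 101 CPM in siRNA control and 104 and 110.5 CPM in ETS1 siRNA (log2 change 0.19 ± 0.14 (SE), adjusted p = 0.505). HSPA1B had 48.9 and 45.2 CPM in shCON and 56.3 and 52.6 CPM in shETS1 (log2 change 0.21 ± 0.081 (SE), adjusted p = 0.0355), and 86.5 and 101 CPM in siRNA control and 99.2 and 91.7 CPM in ETS1 siRNA (log2 change 0.03 ± 0.14 (SE), adjusted p = 0.937). With the counts of both genes summed, the change after shRNA was 0.15 and not called (adjusted p = 0.107). Over the 12 alternatives other than leaving out a library, this sum included, HSPA1B kept its call in 8. Its log2 changes there ran from 0.085 to 0.23. Alone, HSPA1B was also not called without shCON replicate 2 (0.16, adjusted p = 0.290) or without shETS1 replicate 1 (0.16, adjusted p = 0.167). The HSP110 genes that exchange nucleotide on HSP70 were lower. HSPH1 had 298 and 297 CPM in shCON and 189 and 204 CPM in shETS1 (log2 change -0.60 ± 0.074 (SE), adjusted p = 2.73e-06), and 405 and 382 CPM in siRNA control and 351 and 347 CPM in ETS1 siRNA (log2 change -0.17 ± 0.12 (SE), adjusted p = 0.469). HSPA4 changed by -0.16 ± 0.076 (SE, adjusted p = 0.0843), and was not called without shCON replicate 1, shCON replicate 2 or shETS1 replicate 1 (adjusted p = 0.124, 0.400 and 0.237). BAG3, a co-chaperone that couples HSP70 to small heat shock proteins and selective autophagy, had 59.9 and 55.6 CPM in shCON and 32.6 and 33.8 CPM in shETS1 (log2 change -0.80 ± 0.082 (SE), adjusted p = 2.97e-07). BAG3 had 148 and 155 CPM in siRNA control and 172 and 170.2 CPM in ETS1 siRNA in the siRNA table (log2 change 0.18 ± 0.12 (SE), adjusted p = 0.480). DNAJA1, an HSP40 co-chaperone, fell by -0.38 ± 0.072 (SE, adjusted p = 2.39e-04) on the log2 scale, whereas DNAJB1 and the HSP90 activator AHSA1 were not called (log2 changes 0.06 and 0.12).

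Besides HSPA1B, the genes of this arm that rose were the small heat shock proteins HSPB8 and HSPB1. HSPB8, the partner of BAG3, had 60.2 and 63.02 CPM in shCON and 118 and 121 CPM in shETS1, a 1.94-fold rise (log2 change 0.96 ± 0.073 (SE), adjusted p = 7.77e-09). It thus moved opposite to BAG3 in the same libraries. In the siRNA table HSPB8 had 86.3 and 70.7 CPM in siRNA control and 72.6 and 75.9 CPM in ETS1 siRNA, and the groups overlapped (log2 change -0.08 ± 0.14 (SE), adjusted p = 0.799). HSPB1 (HSP27), a holdase for unfolding proteins, had 567 and 613 CPM in shCON and 672 and 799 CPM in shETS1 (log2 change 0.32 ± 0.090 (SE), adjusted p = 0.00645). The HSPB1 call after shRNA was lost with library size alone (log2 change 0.19, adjusted p = 0.121) and in the joint fit (0.30, adjusted p = 0.170). The mitochondrial chaperonin HSPD1 (HSP60) had 892 and 944 CPM in shCON and 554 and 591 CPM in shETS1 (log2 change -0.68 ± 0.081 (SE), adjusted p = 1.73e-06). Its siRNA levels were 1115 and 1043 CPM in siRNA control and 821 and 906 CPM in ETS1 siRNA, also lower in the knockdown but not called (log2 change -0.32 ± 0.12 (SE), adjusted p = 0.214). HSPE1 (HSP10), its partner, which shares a divergent promoter with HSPD1, fell by -0.55 ± 0.080 (SE, adjusted p = 1.51e-05) on the log2 scale. The heat shock element was in the windows of HSPA8 and DNAJA1, 2 of the 10 cytosolic windows, none of the 20 ER windows and 0.49% of all windows. These sites are shown because neither gene was among the large changes of its arm.
HSPA8, upstream site, chr11:122933062-122933074, minus strand: agcttGAAAGTTCCAGAAcgctg
HSPA8, downstream site, chr11:122932887-122932899, minus strand: gccccTTCTGGAAGGTTCtaaga
DNAJA1, chr9:33025274-33025286, plus strand: gggcgGAACTTTCCAGAAcgctc

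After ETS1 siRNA, HSPB1 was the gene of the list that passed the test. HSPB1 had 485 and 726 CPM in siRNA control and 1118 and 1141 CPM in ETS1 siRNA, a 1.87-fold rise (log2 change 0.90 ± 0.18 (SE), adjusted p = 0.0638). The knockdown libraries agreed closely and both lay above the controls, which differed between themselves. The call was lost without siRNA control replicate 1 (log2 change 0.64, adjusted p = 0.518). The ER arm differed between replicates of the siRNA groups more than between the groups. In siRNA control, 25 of the 26 ER genes were higher in replicate 1 than in replicate 2, with a median log2 ratio of 0.33. In ETS1 siRNA, 23 of the 26 were higher in replicate 2, with a median log2 ratio of replicate 1 over replicate 2 of -0.23. The ER arm took 1.33% and 1.00% of all counts in siRNA control and 1.06% and 1.35% in ETS1 siRNA, in replicate order. The cytosolic arm took 1.47% and 1.47%, and 1.34% and 1.39%. In shCON and shETS1 the ER genes split 14 to 12 and 8 to 18 between replicates 1 and 2, with median log2 ratios of 0.013 and -0.033. The standard error was larger after siRNA than after shRNA for all 26 ER genes (medians 0.16 and 0.080) and all 16 cytosolic genes (0.13 and 0.079). What made the siRNA libraries of a group differ in the ER arm was not tested.

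**Figure D3:**
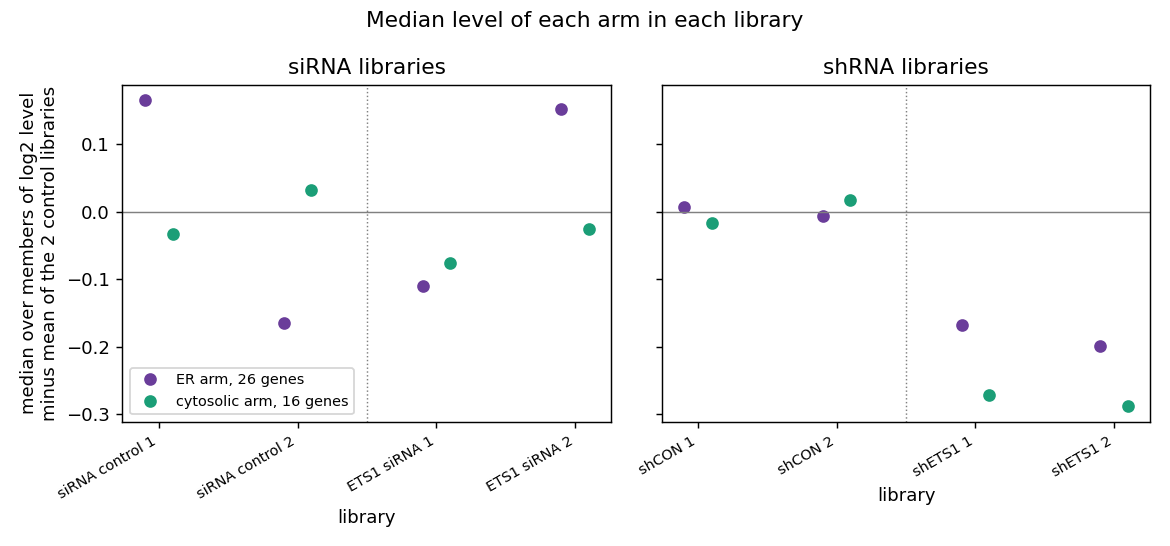
Median over the genes of each arm of the log2 level minus the mean of the 2 control libraries of the same table (vertical axis), for each library. The ER arm (purple) runs from -0.17 to 0.17 within siRNA control, whereas both arms lie between -0.17 and -0.29 in the shETS1 libraries.

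The arms were then set side by side. After siRNA the median log2 change was 0.026 in the ER arm and -0.047 in the cytosolic arm, beside 0.0018 over all genes tested. Leaving out each library in turn moved the ER median from -0.14 to 0.24, so that its sign was not determined. After shRNA the medians were -0.21 and -0.27, beside 0.00066 over all genes tested. In the shETS1 libraries the ER median was -0.17 and -0.20 and the cytosolic median -0.27 and -0.29 relative to the controls, whose replicates differed by a median log2 ratio of 0.013 (ER) and -0.035 (cytosolic). Of the ER arm 5 genes were higher and 12 lower, and of the cytosolic arm 3 were higher and 9 lower. With library size alone these became 4 and 19 in the ER arm and 1 and 10 in the cytosolic arm. The ER median exceeded the cytosolic one by 0.058, and by 0.035 to 0.14 when each library was left out. The arms took 0.705% and 0.685% (ER) and 1.05% and 1.03% (cytosolic) of the counts in shCON, and 0.536% and 0.569% and 0.708% and 0.753% in shETS1.

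Whether the knockdowns differed was tested on all 8 libraries as the change after shRNA minus the change after siRNA. This fit uses a shared spread for both tables, although they differ in it. The common dispersion, the spread beyond sampling noise, was 0.019 for siRNA and 0.0040 for shRNA alone, and 0.011 in the fit of all 8. The error of the siRNA part can therefore be understated in the SE and adjusted p of the difference. Of the 42 genes, 17 were called, 3 higher and 14 lower, where 34.8% of all 17190 genes tested were called, 15.1% higher and 19.7% lower. The ER arm had 7 calls of 26 and the cytosolic arm 10 of 16. The lowest values were in HSPA5 (log2 change -1.51 ± 0.29 (SE), adjusted p = 0.00349), HSP90AA1 (log2 change -1.03 ± 0.17 (SE), adjusted p = 0.00126), SDF2L1 (log2 change -1.003 ± 0.20 (SE), adjusted p = 0.00417) and BAG3 (log2 change -0.997 ± 0.13 (SE), adjusted p = 4.09e-04). The higher ones were HSPB8 (log2 change 1.02 ± 0.15 (SE), adjusted p = 9.19e-04), ATF6 (log2 change 0.51 ± 0.12 (SE), adjusted p = 0.0105) and ERO1L (log2 change 0.49 ± 0.12 (SE), adjusted p = 0.0131). HSP90B1, DDIT3, EIF2AK3 and ERN1 were not called, with differences from -0.52 to 0.05. EDEM1, lower in all knockdown libraries of both tables, also showed no called difference (-0.33 ± 0.21, SE). Of the 17 calls, 11 held when each of the 8 libraries was left out in turn. The knockdowns differ in reagent, duration and library content together, and these cannot be told apart.

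**Figure D4:**
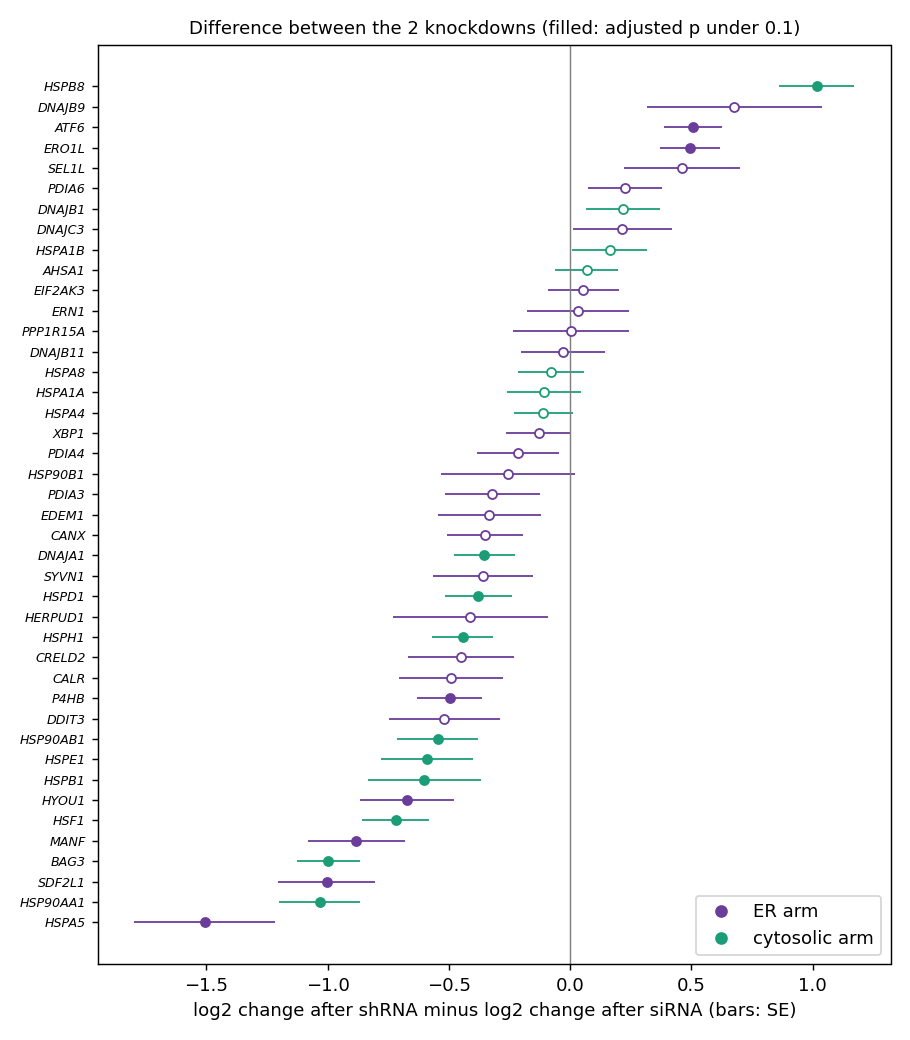
Change after shRNA minus change after siRNA on the log2 scale (horizontal axis, bars show the standard error) for the 42 genes, sorted, with the ER arm in purple and the cytosolic arm in green. Filled points passed the test, 14 of them below 0 down to -1.51 (HSPA5) and 3 above 0 up to 1.02 (HSPB8).

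Other genes of the same pathways, taken from further lists, did not all follow the chaperones after shRNA. The counts in all these lists are to be read beside 29.7% of all genes tested called higher and 30.9% lower. With library size alone these shares were 22% and 38%. Of 19 tested genes of ER-associated degradation outside the 42, 13 were higher and none lower at the adjusted threshold, with a median log2 change of 0.28. At an unadjusted p under 0.05 there were likewise 13, beside 59.2% of all genes tested. With library size alone this became 10 higher and 3 lower. They included UBE2G2, a ubiquitin-conjugating enzyme (1.10 ± 0.074, SE), EDEM2 (0.81 ± 0.089) and FAM8A1, a cofactor of SYVN1 (0.77 ± 0.087). Of 24 other ER folding enzymes 12 were higher and 4 lower, among them FKBP7 (1.15 ± 0.17), SDF2, the paralog of SDF2L1 (0.67 ± 0.086), and FKBP14 (-0.65 ± 0.074), and with library size alone 9 were higher and 8 lower. The genes of translocation and ER-Golgi traffic split into 6 higher and 9 lower of 23, with TRAM1 at 0.91 ± 0.072, SEC61B at 0.58 ± 0.076 and the KDEL receptor KDELR2 at -0.58 ± 0.078.

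Among these lists of related genes, the median furthest from 0 after shRNA was that of UPR relatives together with PERK and ATF4 outputs. This list mixes ATF4 and genes downstream of it with other genes, such as ATF6B, CREB3 and MBTPS1. Of 17 tested relatives of the UPR factors and ATF4 outputs, 12 were lower and 1, CREB3, was higher, with a median log2 change of -0.71. ASNS (asparagine synthetase) had 78.1 and 81.2 CPM in shCON and 13.6 and 15.9 CPM in shETS1 (log2 change -2.43 ± 0.093 (SE), adjusted p = 1.06e-12). TRIB3, a pseudokinase induced by CHOP and ATF4, had 47.9 and 46.6 CPM in shCON and 10.1 and 9.99 CPM in shETS1 (log2 change -2.24 ± 0.096 (SE), adjusted p = 4.42e-12). STC2, a stress-induced secreted glycoprotein, had 28.002 and 23.3 CPM in shCON and 5.75 and 6.34 CPM in shETS1 (log2 change -2.08 ± 0.13 (SE), adjusted p = 4.48e-10). After siRNA none of the 18 tested genes of this list was called, and 6 had an unadjusted p under 0.05 (18.5% of all genes tested did). Of the 18, 11 had positive and 7 negative log2 changes, with a median of 0.024 and a range of -0.61 to 1.46. ASNS, TRIB3 and STC2, named for their changes after shRNA, had log2 changes of -0.39, -0.31 and -0.61. The difference between the knockdowns was called lower for 12 of 18, beside 19.7% of all genes tested. Among them were TRIB3 (-1.95 ± 0.17), ASNS (-2.06 ± 0.21) and CHAC1 (-2.39 ± 0.27).

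Among cytosolic relatives, HSP90 co-chaperones, HSF relatives and small heat shock proteins were 4 higher and 10 lower of 16 after shRNA, with PTGES3 (p23) at -1.17 ± 0.091, the mitochondrial HSP90 TRAP1 at -0.67 ± 0.074 and FKBP4 at -0.56 ± 0.071. Other HSP70, DNAJ and BAG genes were 5 higher and 2 lower of 21, the highest being BAG1 (1.02 ± 0.11), with DNAJB2 at 0.65 ± 0.087 and HSPA2 at 0.41 ± 0.071. With library size alone this list became 3 higher and 7 lower. The cytosolic chaperonin CCT and prefoldin genes were 3 higher and 5 lower of 14, with PFDN2 at -1.05 ± 0.10, PFDN5 at 0.46 ± 0.077 and PFDN4 at 0.33 ± 0.083. After siRNA, the calls in all the lists of related genes, ER and cytosolic, were all lower and numbered 6. Of all genes tested, 1.13% were higher and 2.27% lower. The calls were 2 of 24 other ER folding enzymes and 2 of 23 genes of translocation and ER-Golgi traffic. A further 1 was among 21 other HSP70, DNAJ and BAG genes and 1 among 14 CCT and prefoldin genes. The remaining lists, of 19, 18 and 16 tested genes, had 0. The 6 were VBP1 (-0.87 ± 0.13), SEC31A (-0.68 ± 0.15), GRPEL1 (-0.63 ± 0.14), TMX3 (-0.63 ± 0.14), SDF2 (-0.59 ± 0.12) and SEC63 (-0.59 ± 0.14). SDF2 and TMX3 were called higher after shRNA, and the difference between the knockdowns was called for both (1.24 ± 0.15 and 1.09 ± 0.16).

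**Figure D5:**
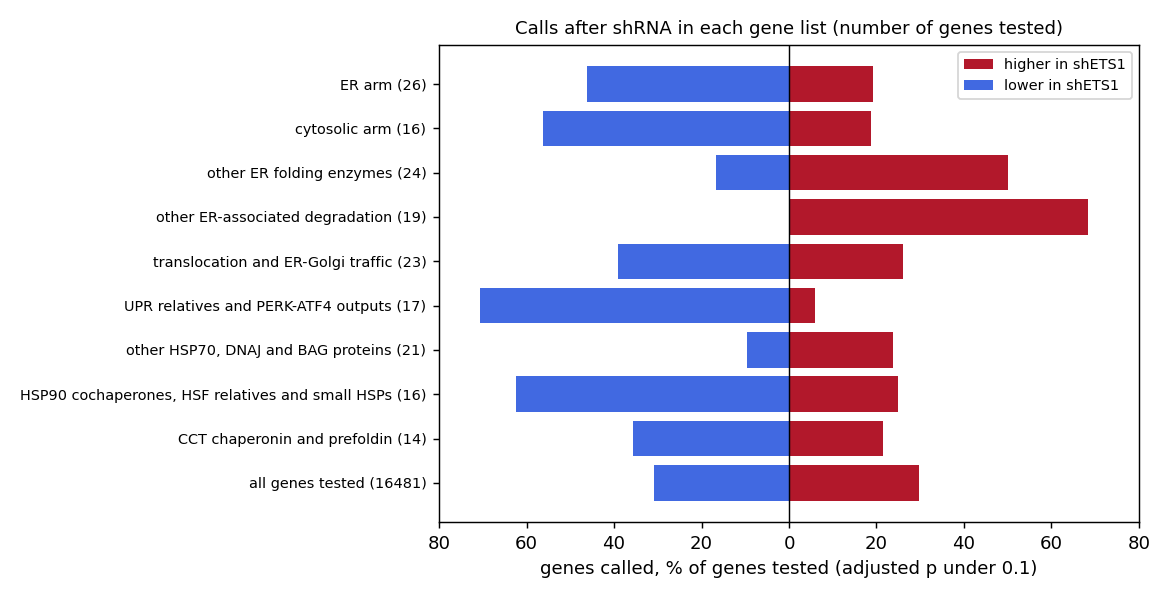
Share of genes called higher (red, right) and lower (blue, left) in shETS1 against shCON, in percent of the genes tested in each list, whose number is in parentheses. All genes tested split almost evenly, at 29.7% and 30.9%. Both arms and the mixed list of UPR relatives and PERK-ATF4 outputs extend mostly to the left. So does the list of HSP90 co-chaperones, HSF relatives and small heat shock proteins. The other genes of ER-associated degradation and the other ER folding enzymes extend mostly to the right.

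Levels were also compared between genes per length, as TPM, the counts relative to depth and to the summed exonic length of each gene. In siRNA control the highest level was that of HSP90AB1 (4324 ± 491 TPM, SD, n = 2), followed by CALR (4197 ± 872 TPM), HSP90AA1 (3774 ± 13.7 TPM) and HSPA8 (3171 ± 56.6 TPM). HSP90AB1 and CALR did not differ beyond their spread. In shCON the order was HSPA8 (2265 ± 109 TPM), CALR (2128 ± 152 TPM), HSP90AB1 (1828 ± 129 TPM) and HSP90AA1 (1347 ± 134 TPM), and HSPA8 and CALR did not differ beyond their spread. In shETS1 HSPA8 (1697 ± 57.2 TPM) and CALR (1391 ± 161 TPM) were still the highest, and HSP90AA1 was at 456 ± 112 TPM. TPM values were not TMM-scaled and order genes within a group, so they do not give changes between groups. AHSA1, for example, had 296 TPM in shCON and 260 TPM in shETS1, whereas its log2 change was 0.12 and not called. The sensor genes ERN1 and EIF2AK3 were among the 3 lowest in every group. Their summed exonic lengths, 19153 and 20691 bases, were the longest of the list. This length counts all annotated exons and can exceed that of the expressed transcript, so that the order of genes also depends on the annotation. Exons of other genes overlap those of 15 of the 42, and where strand was not used in counting these can share reads.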

How the data were processed

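RNA was measured in 8 libraries of SCC25 cells. TruSeq libraries were sequenced by the authors as short single-end reads, aligned to GRCh37 by TopHat2 2.1.1 on Bowtie2 2.2.6 and assigned to Ensembl genes with featureCounts 1.5.0 (versions from the submitters' processing notes). The deposited values are raw counts per gene symbol in a table per knockdown. Whether strand was used and how reads with several matches were treated is not given in the sources used here. Columns of other samples numbered 0, and every column was used.

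Both knockdowns were tested against their own controls (2 against 2 libraries). The quasi-likelihood F-test (two-sided) was run in R 4.3.3 using edgeR 4.0.16 after TMM scaling and filterByExpr, without covariates. P-values were adjusted by Benjamini-Hochberg over all genes tested and called under 0.1, the threshold the authors used with DESeq2. The shRNA effect minus the siRNA effect was tested in a fit of all 8 libraries. A standard error (SE) was obtained from the log2 change and the F statistic. CPM is the count relative to the TMM-scaled library size. TPM used exonic lengths of GENCODE v44 lifted to GRCh37. Arm levels per library used log2(CPM + 0.5). Replicates of each group differed by more than sampling noise (chi-square per degree of freedom 6.23 to 23.2). The pipeline was tested on simulated data in which 200 genes were changed. In the siRNA setting 90% of them were recovered and 17.8% of the calls were false. In the shRNA setting 100% were recovered and 15.3% of the calls were false. Both false shares exceeded the 0.1 at which the threshold was set. The estimated log2 changes of the changed genes had a median size of 0.98 (siRNA) and 1.00 (shRNA). The recovered shares therefore do not cover smaller changes, such as the median size of 0.16 in the ER arm after siRNA. Fewer genes were changed in the simulation than in the shRNA libraries, where 60.6% of all genes tested were called.

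The 42 genes, the lists of related genes and the tests were chosen with earlier results of these data known, so that no p is given for the list. Values in every library are given for HSPA5, HSP90B1, XBP1, ATF6, ERN1, EIF2AK3, DDIT3, PPP1R15A, HSF1, HSPA1A, HSPA1B, HSPA8 and HSP90AA1, for genes called after siRNA, for the 8 largest rises and falls after shRNA and for up to 4 of the largest differences in each direction. Of each list of related genes, up to 3 called genes with the lowest adjusted p are named. The library values of SYVN1 were added after they were seen. Promoter windows came from RefSeq and were placed in GRCh37 by exact match.

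The alternatives were DESeq2 size factors in edgeR, library size alone, no filter, at least 10 counts in every library, protein-coding genes with at least 1 TPM, DESeq2 1.42.0, a replicate block, a joint fit of all 8 libraries, the stricter threshold of 0.05, leaving out each library, and HSPA1A and HSPA1B summed.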

Additional observations from a re-analysis of the deposited data

Results flagged for a closer look

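In 17 of the 42 genes the change after shRNA differed from the change after siRNA by the test of that difference (edgeR quasi-likelihood F-test on all 8 libraries, adjusted p under 0.1). The same test called 34.8% of all 17190 genes tested. It uses a shared spread for both tables, although they differ in it, so that the error of the siRNA part can be understated. Among ER chaperones and folding enzymes the differences, as shRNA minus siRNA on the log2 scale, were -1.51 in HSPA5, -1.003 in SDF2L1, -0.88 in MANF, -0.67 in HYOU1, -0.50 in P4HB and 0.49 in ERO1L. Among the sensors ATF6 differed by 0.51. In the cytosolic arm they were -1.03 in HSP90AA1, -0.997 in BAG3, -0.72 in HSF1, -0.60 in HSPB1, -0.59 in HSPE1, -0.55 in HSP90AB1, -0.44 in HSPH1, -0.38 in HSPD1, -0.35 in DNAJA1 and 1.02 in HSPB8. Leaving out each library in turn kept 11 of these calls. The others were DNAJA1, HSP90AB1, HSPB1, HSPD1, HSPE1 and HSPH1. Of these, HSPB1 lost its call without siRNA control replicate 1 (difference -0.35, adjusted p = 0.202), without either shCON library (adjusted p = 0.134 and 0.193) and without shETS1 replicate 1 (0.265). HSPH1 and HSP90AB1 lost it without shCON replicate 1 (adjusted p = 0.103 and 0.105) and without shETS1 replicate 1 (0.131 and 0.153). HSPE1 lost it without siRNA control replicate 1, shCON replicate 2 or shETS1 replicate 1 (adjusted p = 0.122, 0.127 and 0.136). HSPD1 lost it without siRNA control replicate 2, ETS1 siRNA replicate 2, shCON replicate 1, shCON replicate 2 or shETS1 replicate 1, and DNAJA1 without siRNA control replicate 1 or any of the 4 shRNA libraries. HSPD1 then had adjusted p values of 0.105 to 0.238 and DNAJA1 of 0.145 to 0.200.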

How the results depend on the processing

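The siRNA counts were the least stable. Main counts there were 1 higher and 0 lower. Library size alone gave 1 higher and 1 lower, no filter on low counts 3 and 2, at least 10 counts in every library, protein-coding genes with at least 1 TPM, and DESeq2 each 2 and 2, all 8 libraries in one fit 5 and 3, and an adjusted p under 0.05 gave 0 and 0. Leaving out each library gave 0 to 4 higher and 0 to 2 lower, an ER median of -0.14 to 0.24 and an ER minus cytosolic median of -0.11 to 0.31. After shRNA (8 higher, 21 lower), library size alone gave 5 higher, 29 lower and medians of -0.34 (ER) and -0.40 (cytosolic), and all 8 libraries in one fit 3 higher, 16 lower and an ER median of -0.23. Leaving out each library gave ER medians of -0.20 to -0.17, cytosolic medians of -0.31 to -0.24 and a difference of 0.035 to 0.14. For the difference between the knockdowns (3 higher, 14 lower), no filter gave 5 higher, library size alone a cytosolic median of -0.45, and leaving out each library 3 to 6 higher, 8 to 20 lower, ER medians of -0.50 (without siRNA control replicate 1) to -0.097 (without siRNA control replicate 2) around -0.29, cytosolic medians of -0.42 to -0.31 and an ER minus cytosolic median of -0.16 to 0.28. Over all genes the siRNA comparison called 167 higher and 335 lower of 14742. Library size alone called 149 and 373 of 14742, and DESeq2 309 and 488. No filter called 627 and 839 of 27545, and at least 10 counts in every library 268 and 465 of 13737. At least 1 TPM gave 296 and 499 of 12085, and all 8 libraries in one fit 936 and 1230 of 17190. After shRNA the calls over all genes were 4900 and 5088 of 16481. Library size alone gave 3624 and 6269 there, and the joint fit 3811 and 4590 of 17190. The counts of the list are to be read beside these.

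Signs turned in genes that were not called. After siRNA, leaving out each library gave -0.076 to 0.50 for HSPA5, -0.41 to 0.21 for HSP90B1, -0.084 to 0.087 for XBP1, -0.13 to 0.33 for DDIT3, -0.44 to 0.044 for PPP1R15A and -0.078 to 0.14 for HSPA1B, and library size alone gave -0.016 for XBP1. After shRNA, library size alone gave -0.027 for HSPA1A.

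Replicate numbers were not shown to pair the samples, since deviations of same-numbered libraries correlated at -0.54 (siRNA) and -0.20 (shRNA) over genes. With the replicate block the siRNA comparison had 0 genes of the list called (97 of all genes) and the shRNA comparison 7 higher and 20 lower. The difference between the knockdowns had 3 higher and 11 lower. Among the genes named, calls lost with the block were HSPB1 after siRNA (adjusted p = 0.113), PDIA6 after shRNA (0.120) and, for the difference, HSP90AB1, HSPD1 and DNAJA1 (0.108, 0.158 and 0.144). With the crossed pairing, chosen after seeing the data, the counts were 6 higher and 4 lower, 10 and 25, and 5 and 22, where 3238 of 14742, 10923 of 16481 and 7467 of 17190 genes were called in all. Without the 5 structural RNAs, also chosen after seeing the data, they were 1 and 0, 8 and 22, and 3 and 14. In the main test the median SE of the ER arm was 0.16 after siRNA and 0.080 after shRNA. The causes of these shifts were not tested.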
